A study of Mus musculus with 25 samples.

Results

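The genes described here are 40 presynaptic genes whose products load synaptic vesicles, hold them at the active zone, fuse them with the membrane and take the membrane back. They were chosen by name from the 24411 genes of each expression table, and all 40 are listed in all 3 tables. By role they fall into 8 SNARE and fusion genes, 4 calcium sensors, 14 vesicle proteins, 9 active zone genes and 5 endocytosis genes. The class called calcium sensors holds the 4 synaptotagmins of the list, and includes Syt11, which does not bind calcium. The SNARE and fusion genes, the calcium sensors and the vesicle proteins, 26 genes together, are called the vesicle side below.

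Neuronal nuclei were sorted from the hippocampus of male mice with an antibody to NeuN, a nuclear protein of neurons, and their RNA was sequenced in 25 libraries, which fall into 3 experiments. The aging experiment compared wild-type mice at 3 months (young, n = 3) and 18 months (aged, n = 2). In the overexpression experiment, young mice received lentivirus into both hippocampi that carried Ftl1, the gene of ferritin light chain 1, or GFP behind the neuronal synapsin-1 promoter (Ftl1 OE, n = 7, and GFP control, n = 5). In the knockdown experiment, aged mice (18 months) received virus with a short hairpin RNA against Ftl1 or against luciferase (Ftl1 KD, n = 4, and sh-Luc control, n = 4). The methods call the vectors lentiviral but name an adeno-associated virus at the injection step. All animals of the last 2 experiments had been injected. Injections went to CA1 and the dentate gyrus, whereas nuclei came from whole hippocampus, so that nuclei without virus could be sorted too. The hairpin vector has no stated neuronal promoter. Libraries of the aging experiment stand for single mice. Elsewhere, p-values measure the spread between these libraries, whatever it comes from.

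Values are normalized counts, in which the reads of a gene are scaled by a factor for each library, and each table was scaled separately. Libraries held 7969282 to 9537872 reads in the aging experiment, 9943996 to 17034325 in the overexpression experiment and 48902 to 358560 in the knockdown experiment, where the 45S ribosomal RNA precursor Rn45s took 30.3% to 55.3% of the reads. The knockdown groups were not alike in this: Rn45s took 31.9%, 55.3%, 52.9% and 49.4% in sh-Luc controls 1, 2, 3 and 5. In Ftl1 KD it took 30.3% to 34.5%. The deepest libraries were controls 2 and 5, with 358560 and 318645 reads, and Ftl1 KD libraries held 48902 to 97104. The part of these differences in the calls was not tested. The targeted gene, Ftl1, did not follow the group labels of either viral experiment. It ranged from 4580 to 28310 in GFP controls and from 4737 to 7663 in libraries labelled Ftl1 OE (log2 fold change −0.67 ± 0.34 SE, adjusted p = 0.681), and from 24.2 to 56.2 in sh-Luc controls and from 106 to 140 in libraries labelled Ftl1 KD (1.47 ± 0.25, adjusted p = 0.000223). All directions below are therefore those of the labels. Neuronal markers (Rbfox3, Map2, Tubb3, Eno2, Nefl and Celf4) were present in every library, with summed normalized counts of 10837 to 13345 in the aging, 26135 to 63440 in the overexpression and 168 to 207 in the knockdown experiment. Markers of other cells were found too. In the overexpression experiment, oligodendrocyte markers summed to 22584 to 47563 in GFP controls and 26428 to 43795 in Ftl1 OE. Astrocyte markers summed there to 5489 to 24367 and 8708 to 38296, and microglia markers to 2900.5 to 6719 and 1600 to 3105. With age, oligodendrocyte markers summed to 2914 to 6565 in young and 3087 to 4286 in aged libraries. All these groups overlapped, and their part in the results was not tested.

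A synaptic vesicle fuses when its SNARE protein, a synaptobrevin (Vamp genes), zippers with syntaxin (Stx1a) and SNAP-25 (Snap25) on the plasma membrane, and a synaptotagmin senses calcium to trigger the last step. Complexins clamp and speed this fusion, while NSF and its SNAP adaptors (Napb) pull spent complexes apart. Release sites are laid out by very large scaffold proteins, Bassoon (Bsn) and Piccolo (Pclo), together with RIM, ELKS and liprin proteins, and Munc13 proteins (Unc13a, Unc13b) make vesicles ready to fuse. Hippocampal pyramidal and granule cells are glutamatergic and load their vesicles mainly through VGLUT1 (Slc17a7).

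The division of labour has a counterpart in transcript size. Over the longest coding transcript of each gene in GENCODE M21, the vesicle side had a median of 3.56 kb (1.35 to 8.44 kb) and the active zone genes a median of 8.885 kb (4.65 to 20.1 kb). The shortest transcripts belonged to Sncb (beta-synuclein, 1.35 kb) and Rab3a (a vesicle GTPase, 1.56 kb), and the longest to Pclo (20.1 kb) and Bsn (15.9 kb). The genes themselves spanned a median of 35.0 kb for the vesicle side and 349 kb for the active zone genes. Transcript size is therefore given beside each comparison below.

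The promoters shown are those of the 5 members with the largest differences past the threshold in the knockdown experiment. Napb and Stx1a were higher, and Unc13a, Pclo and Bsn lower, in libraries labelled Ftl1 KD. All 5 reached the mean needed for a test only in the group where they were higher, which favours large differences. Pclo kept its call in only 2 of 8 fits that left out 1 library. The sequences run from 250 bases before to 50 bases after an annotated start, 5′ to 3′ on the strand of the gene, from RefSeq on GRCm38.p6, the build that is also called mm10. They lie at chr2:148732371-148732670 (minus strand, Napb), chr5:135023232-135023531 (plus strand, Stx1a), chr8:71671708-71672007 (minus strand, Unc13a), chr5:14514668-14514967 (plus strand, Pclo) and chr9:108190334-108190633 (minus strand, Bsn). Capitals mark, on either strand, the GC box GGGCGG, to which Sp1 family factors bind, and TTCAGCACC, the left arm of the RE1 element that the neuronal gene repressor REST binds.
Napb: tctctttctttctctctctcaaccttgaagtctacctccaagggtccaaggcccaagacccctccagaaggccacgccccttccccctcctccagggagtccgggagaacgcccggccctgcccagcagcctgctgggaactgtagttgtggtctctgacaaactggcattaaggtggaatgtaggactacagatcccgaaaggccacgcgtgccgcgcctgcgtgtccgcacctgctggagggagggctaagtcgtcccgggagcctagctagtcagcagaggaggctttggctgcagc
Stx1a: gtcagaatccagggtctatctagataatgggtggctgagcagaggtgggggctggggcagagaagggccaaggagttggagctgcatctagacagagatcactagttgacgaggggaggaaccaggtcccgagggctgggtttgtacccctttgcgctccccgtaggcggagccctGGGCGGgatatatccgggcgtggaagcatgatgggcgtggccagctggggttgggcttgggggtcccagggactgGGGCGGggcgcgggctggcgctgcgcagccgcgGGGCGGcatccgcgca
Unc13a: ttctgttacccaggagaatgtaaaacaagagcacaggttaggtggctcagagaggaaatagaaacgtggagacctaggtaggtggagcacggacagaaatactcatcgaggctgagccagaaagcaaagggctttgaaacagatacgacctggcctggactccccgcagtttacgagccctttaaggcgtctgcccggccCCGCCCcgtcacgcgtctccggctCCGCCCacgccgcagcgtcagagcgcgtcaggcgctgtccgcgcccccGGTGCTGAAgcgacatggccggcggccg
Pclo: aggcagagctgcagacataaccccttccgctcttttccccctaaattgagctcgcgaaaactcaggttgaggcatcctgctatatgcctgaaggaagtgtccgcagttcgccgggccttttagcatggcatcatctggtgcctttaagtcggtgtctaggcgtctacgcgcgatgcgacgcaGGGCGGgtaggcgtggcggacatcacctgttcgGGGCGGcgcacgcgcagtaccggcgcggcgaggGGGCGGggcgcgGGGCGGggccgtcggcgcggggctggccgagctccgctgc
Bsn: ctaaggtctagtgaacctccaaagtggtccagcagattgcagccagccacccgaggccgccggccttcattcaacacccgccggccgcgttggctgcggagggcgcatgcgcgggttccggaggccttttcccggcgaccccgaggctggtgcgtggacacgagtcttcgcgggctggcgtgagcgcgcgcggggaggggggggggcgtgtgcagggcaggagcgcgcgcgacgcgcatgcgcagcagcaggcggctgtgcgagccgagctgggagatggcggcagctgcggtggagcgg
All 5 windows were rich in G and C, from 61.3% in Napb and Unc13a to 72.3% in Bsn. The GC box occurred 4 times in the Pclo window, 3 times in Stx1a and 2 times in Unc13a, and the letters were not in the Napb and Bsn windows, so that neither the higher nor the lower genes shared it throughout. RefSeq starts were given for 35 of the 40 members, and at least 1 start of 29 of them (82.9%) had a GC box, beside 38.2% of all 27025 genes in the promoter table. The RE1 arm was in 3 of the 35 (8.57%: Unc13a, Syn1 and Ppfia3) beside 0.433% of all genes. The cyclic AMP response element TGACGTCA, where CREB binds, was in 2 (5.71%: Syn1 and Sh3gl2) beside 2.03% of all. A match is a run of letters and not a bound site.

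In the young wild-type libraries the 40 genes were abundant. Levels between genes are compared per kb of the longest coding transcript, on which scale the members had a median of 418 normalized counts per kb in the young libraries, beside 78.8 for the 12621 tested coding genes. Snap25 was highest at 4211 ± 638 (SD, n = 3), followed by Syp (synaptophysin, an integral protein of the vesicle membrane) at 3720 ± 853, Syt1 (the fast calcium sensor) at 3488 ± 591, Syngr3 (a synaptogyrin) at 2983 ± 900 and Syt11 (a synaptotagmin that does not bind calcium) at 2762 ± 563. Each of these 5 overlapped its next lower neighbour in range except Syt11, which lay above Nsf (the ATPase NSF, 1894 ± 230).

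Role medians ran from 1466 for the 4 calcium sensors and 699 for the vesicle proteins through 573 for endocytosis and 470 for SNARE and fusion genes down to 137 for the active zone genes. Within the active zone group the liprin Ppfia2 stood highest at 1119 ± 166, the ELKS gene Erc2 followed at 434 ± 101, and Rims2 (a RIM scaffold) stood at 222 ± 35.8. Bsn (139 ± 31.6), Unc13a (137 ± 29.0) and Pclo (126 ± 36.0) overlapped each other. Among paralogues of the calcium sensors, Syt7 (slow, high affinity) was at 170 ± 41.1 and Syt2, the sensor of fast-spiking interneurons and hindbrain, at 5.01 ± 5.13, the lowest of all members and at 0 in 1 young library. Slc17a7 exceeded Slc17a6, the VGLUT2 gene of subcortical neurons, at 401 ± 69.5 against 54.7 ± 35.0, with no overlap. Of the Rab3 GTPases, Rab3a was at 1697 ± 486, Rab3c at 175 ± 5.54 and Rab3b at 97.9 ± 14.1, and none of these ranges overlapped.

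**Figure D1:**
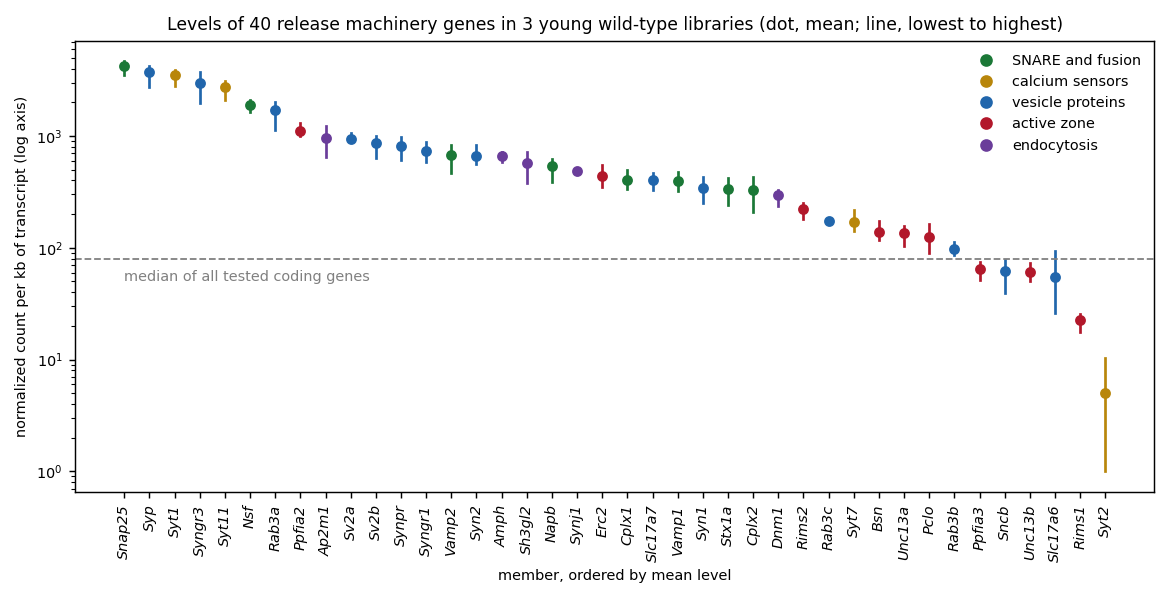
Normalized counts per kb of the longest coding transcript (log axis) of the 40 members in the 3 young wild-type libraries, with the mean as a dot and the lowest to highest value as a line; a lowest value of 0, in Syt2, is drawn at 1. Snap25, Syp, Syt1, Syngr3 and Syt11 lead with means of 2762 to 4211, and most active zone genes (red) lie in the lower part, with Bsn, Unc13a and Pclo between 126 and 139.

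With age, no member passed the threshold of limma (an adjusted p of 0.05 and an absolute log2 fold change of 0.5), and neither did any other gene: 0 of the 13712 genes tested were called (0%), 7.94% had an unadjusted p of 0.05 or less, edgeR called 0% and DESeq2 1.01%, with no member among the calls of DESeq2. The smallest adjusted p among the members was 0.563. All 40 members were tested; 28 had a log2 fold change above 0 and 12 below, with a median of 0.17 beside −0.03 for all genes. By role, the medians were 0.44 for the calcium sensors (4 of 4 above 0), 0.28 for the vesicle proteins, 0.20 for SNARE and fusion genes, 0.16 for the active zone genes and 0.09 for endocytosis. With 3 against 2 libraries the 95% interval of a member's log2 fold change had a median width of 0.68 on either side.

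The 2 members with an unadjusted p under 0.05, both higher in aged mice (2 of 40, beside 2.9% of all genes in that direction), were Syn2 and Sv2a. Syn2 encodes synapsin II, which tethers vesicles of the reserve pool. Its normalized counts were 2397, 3184 and 2146 in the young and 4229 and 4084 in the aged libraries (log2 fold change 0.71 ± 0.27, adjusted p = 0.563). The groups did not overlap, while its paralogue Syn1 ranged from 813 to 1406 in young and from 1016 to 1142 in aged libraries, with a log2 fold change of −0.01. Sv2a, the vesicle glycoprotein to which levetiracetam binds, was at 3803, 3834 and 4655 in young and 5792 and 6691 in aged libraries (0.61 ± 0.27, adjusted p = 0.614). Its paralogue Sv2b overlapped between the groups, at 3536 to 5543 and 2870 to 5518.

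The next 4 members by p were also on the higher side. Syngr1, a synaptogyrin, measured 2427, 3051 and 3674 in young and 4372 and 4671 in aged libraries (log2 fold change 0.59 ± 0.28, adjusted p = 0.641). Slc17a7 measured 954, 1356 and 1198 against 1432 and 2181.8 (0.61 ± 0.30, adjusted p = 0.642), and Syt7 measured 1436, 1001 and 936 against 1775 and 1543 (0.58 ± 0.29, adjusted p = 0.646). For these 3 genes each aged library lay above every young one. Cplx2, a complexin, overlapped, with 1030, 2107 and 1771 against 2038 and 2670 (0.57 ± 0.33, adjusted p = 0.669). Single libraries carried part of these differences, which were 0.31 for Slc17a7 without aged 3, and 0.27 for Cplx2 without young 1 and 0.38 without aged 3.

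Of all members, 8 lay higher without overlap in the aged libraries (8 of 40, beside 12.2% of all genes) and 3 lower (3 of 40, beside 12.5%), 24.7% being the share of all genes in either direction. Besides Syn2, Sv2a, Syngr1, Slc17a7 and Syt7, the higher ones were Vamp2, the synaptobrevin of most forebrain synapses (1034 to 1826 in young, 1937 to 2131 in aged), Rab3b (287 to 378, 420 to 437) and Synj1, the phosphatase that strips clathrin coats (3365 to 3655, 3722 to 4080). The lower ones were Snap25 (7367 to 9875 in young, 6832 to 6886 in aged), Rab3c (1435 to 1527, 1299 to 1300) and Ppfia2 (8883 to 11631, 7806 to 8262). Their adjusted p were all 0.563 or above.

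The shortest and the longest transcripts overlapped between the ages. The 2 shortest members were at 52.9, 94.4 and 106 in young and 141 and 104 in aged libraries for Sncb (log2 fold change 0.58 ± 0.61, and 0.28 without young 1) and at 1769, 3121 and 3033 against 2538 and 3072 for Rab3a (0.13 ± 0.31). The 2 longest were at 2787, 1960 and 1877 against 3151 and 2771 for Bsn (0.44 ± 0.28) and at 3258, 1814 and 2505 against 4465 and 2287 for Pclo (0.38 ± 0.34), and all 4 groups of values overlapped. The median log2 fold change of the vesicle side minus that of the active zone genes was 0.10, and its sign turned with single libraries: −0.37 without aged 3, −0.12 without young 1 and 0.64 without aged 2. Calculated per library, as the mean centred log2 value of the vesicle side minus that of the active zone genes, the difference ran from −0.49 to 0.16 in young and was −0.41 and 0.67 in the aged libraries, which overlapped. Across members the Spearman correlation of transcript length with the log2 fold change was −0.04 (n = 40 genes, which share libraries), and −0.07 across 12621 genes. In bulk nuclei, fewer cells of a type and less RNA per cell cannot be told apart.

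In the overexpression experiment, no member passed the threshold (an adjusted p of 0.05) between libraries labelled Ftl1 OE and GFP controls. Limma called 0% of 14099 genes and edgeR 0%, while DESeq2 called 0.645%, again with no member among its calls, and 7.26% of genes but 0 of the 40 members had an unadjusted p of 0.05 or less. The members split into 20 above and 20 below 0, with a median log2 fold change of 0.01 beside 0.10 for all genes. No member was without overlap between the groups, beside 0.582% of all genes. Role medians were 0.23 for endocytosis, 0.11 for the calcium sensors, 0.10 for the active zone, 0.04 for SNARE and fusion genes and −0.19 for the vesicle proteins. The median 95% interval of a member reached 0.57 on either side of its log2 fold change, narrower than with age.

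The GFP controls were spread widely, and 2 of them, 9905 and 9926, stood apart from the other 10 libraries. Both lay above or both below all the others for 11 of the 40 members (7 above, 4 below, or 27.5%), beside 25.7% of all genes tested, a share near that of the members. Above were Vamp2 (17811 and 16528 beside 7023 to 13049 in the other 10), Cplx1, Syngr3, Slc17a7, Rab3a, Rab3b and Sncb. Below were Snap25 (4453 and 3190 beside 4619 to 27889), Nsf, Synpr and Sh3gl2.

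Sh3gl2 had the smallest p among the members (0.0545). It encodes endophilin A1, which bends membrane at sites of vesicle retrieval. Its normalized counts were 4390, 3883, 2834, 3642 and 2260 in the controls 9901, 9904, 9905, 9925 and 9926, and had a lowest value of 3566, a median of 4291 and a highest of 4745 in the 7 libraries labelled Ftl1 OE (log2 fold change 0.37 ± 0.18, adjusted p = 0.672). Only the control 9901 lay inside the range of the 6 highest Ftl1 OE libraries, and without the controls 9905 and 9926 together the log2 fold change was 0.11.

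The Rab3 genes lay on the lower side. Rab3a measured 11863, 9983, 21424, 13761 and 18840 in the controls, in the same order, and 7405 at lowest, 11557 at the median and 14773 at highest in Ftl1 OE (−0.47 ± 0.24, adjusted p = 0.681). Rab3b measured 681, 993, 2262, 1380 and 2109 in the controls and 568, 969 and 1161 at the lowest, median and highest of Ftl1 OE (−0.52 ± 0.29, adjusted p = 0.697). For both genes the 2 highest values were those of 9905 and 9926, and without them the log2 fold changes were −0.16 and −0.06. Rab3c, the third of these GTPases in the list, ranged from 458 to 1518 in controls and from 489 to 794 in Ftl1 OE (−0.43 ± 0.29, adjusted p = 0.723).

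Synpr and Sncb also changed without the controls 9905 and 9926, Synpr in direction and Sncb in size only. Synpr, a synaptophysin relative of mossy fibre terminals, measured 4247, 5767, 991, 3048 and 824 in the controls and 2356, 3836 and 5137 at the lowest, median and highest of Ftl1 OE (0.74 ± 0.41, adjusted p = 0.699). Without 9905 and 9926 its log2 fold change was −0.14, in the other direction. Sncb measured 113, 138, 230, 156 and 262 in the controls and 57.3, 114 and 160 in Ftl1 OE (−0.74 ± 0.43, adjusted p = 0.708). Without 9905 and 9926 the log2 fold change of Sncb was −0.39, in the same direction. Syn2 had its highest value in a different control, with 2992, 2280, 2684, 7540 (control 9925) and 2745, beside 2341, 5039 and 7229 in Ftl1 OE (0.54 ± 0.31, adjusted p = 0.707), and without that control its log2 fold change was 0.84.

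The longest transcripts showed no difference between the groups that exceeded their spread. Bsn measured 1228, 1133, 1621, 1611 and 1732 in the controls and 911, 1325 and 2185 in Ftl1 OE (−0.08 ± 0.22, adjusted p = 0.931), and Pclo measured 1684, 4151, 2308, 2197 and 2646 in the controls and 1508, 2403 and 3144 in Ftl1 OE (−0.14 ± 0.24, adjusted p = 0.884). The median log2 fold change of the vesicle side minus that of the active zone genes was −0.17, but 0.07 without control 9905 and −0.30 without Ftl1 OE 9895. Per library this difference overlapped between the groups, with −0.32 to 0.74 in the controls and −0.58 to 0.37 in Ftl1 OE. Across all genes, short transcripts leaned to the lower side here: the median log2 fold change was −0.22 for 3048 genes under 2 kb, 0.14 for 7104 genes of 2 to 5 kb and 0.23 for 2923 genes over 5 kb. The members stood in the same order, at −0.47 (n = 3), 0.00 (n = 24) and 0.10 (n = 13), and the Spearman correlation of length with the log2 fold change was 0.37 over 40 members and 0.28 over 13075 genes. The control 9905 had the highest excess of short over long transcripts of all 12 libraries (1.09 on the log2 scale) and 9926 the next (0.66).

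**Figure D2:**
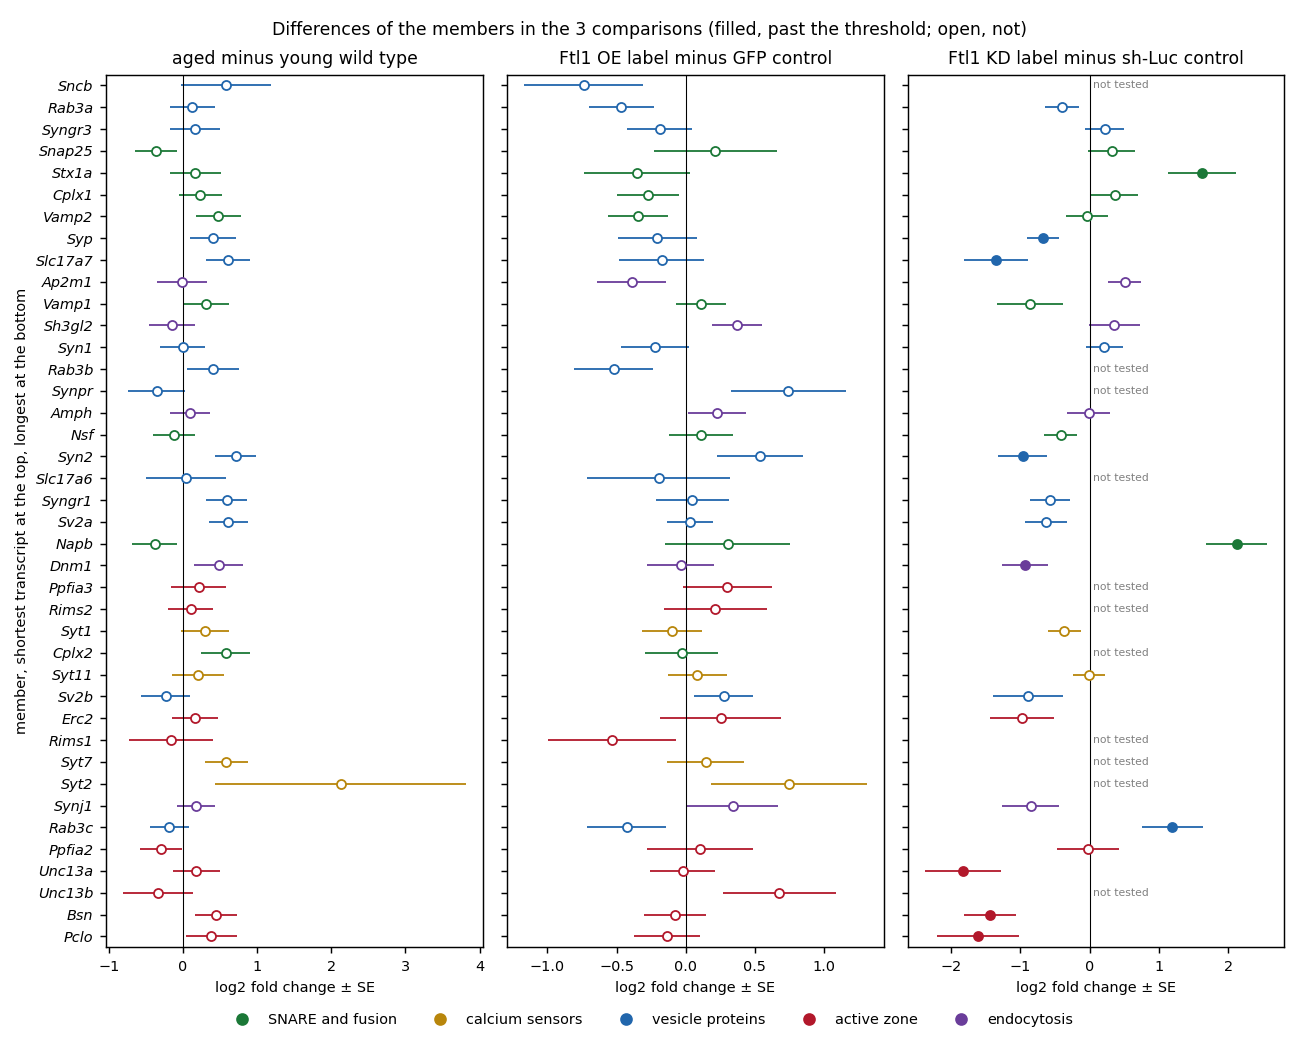
Log2 fold change with its SE of each member in the 3 comparisons, ordered from the shortest transcript (top) to the longest (bottom) and coloured by role. No point is filled, that is, past the threshold, for aging or Ftl1 OE, and 10 are filled for Ftl1 KD, where the 3 longest transcripts tested, Unc13a, Bsn and Pclo, lie between −1.84 and −1.44; 11 members were not tested there.

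The knockdown experiment was the only one of the 3 with members past the threshold. Syntaxin 1A (Stx1a), the SNAP adaptor Napb and Rab3c were higher in libraries labelled Ftl1 KD. Synaptophysin (Syp), VGLUT1 (Slc17a7), synapsin II (Syn2), dynamin 1 (Dnm1), Munc13-1 (Unc13a), Bassoon (Bsn) and Piccolo (Pclo) were lower. These 10 made up 34.5% of the 29 members tested, beside 24.2% of the 1460 genes tested, and the 3 higher and 7 lower members stand beside 10.5% and 13.7% of all genes. EdgeR called 9 members and 28.8% of all genes, DESeq2 7 members and 23.8%. A mean normalized count of at least 10 was needed for a test, and 10 of the 29 members, 6 of the 10 called among them (Stx1a, Napb, Rab3c, Unc13a, Bsn and Pclo), reached that mean in only 1 of the 2 groups, so that these shares are a description of what was measurable. Depth was shallow: of the 80 values behind the 10 genes, 27 rested on fewer than 10 reads, and the values ranged from 1 to 367 reads.

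Among the 7 SNARE and fusion genes tested, Napb and Stx1a rose and none fell, beside 10.5% higher and 13.7% lower of all genes, and both reached the limit on the mean only in the Ftl1 KD group. Napb encodes beta-SNAP, the brain form of the adaptor through which NSF takes SNARE complexes apart. Its normalized counts were 11.3, 4.03, 1.87 and 5.02 in the sh-Luc controls 1, 2, 3 and 5, and 24.9, 22.5, 32.8 and 17.6 in Ftl1 KD 1, 3, 4 and 5. Every Ftl1 KD library lay above every control (log2 fold change 2.12 ± 0.44, a 4.35-fold difference with a 95% interval of 2.33 to 8.13, adjusted p = 0.00117).

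Stx1a, the plasma membrane SNARE, measured 5.66, 4.44, 1.87 and 11.3 in the controls and 23.0, 15.3, 14.6 and 17.6 in Ftl1 KD, again with no overlap (1.62 ± 0.49, 3.07-fold, interval 1.54 to 6.12, adjusted p = 0.0157). The lowest control value of both genes, in control 3, was 1 read. Their partners did not pass the threshold. Snap25 ranged from 14.98 to 67.0 in controls and from 25.5 to 45.1 in Ftl1 KD (0.31 ± 0.34), Vamp2 from 18.7 to 39.5 and from 16.4 to 39.7 (−0.04 ± 0.31), and Cplx1 from 9.36 to 27.4 and from 16.2 to 29.8 (0.36 ± 0.34). Nsf, which acts with Napb, was at 61.4 to 65.5 in controls and 36.4 to 57.7 in Ftl1 KD, without overlap but short of the threshold (−0.42 ± 0.24, adjusted p = 0.191).

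The Rab3 GTPases, which mark vesicles for docking, were split. Rab3c measured 4.72, 7.26, 5.62 and 7.11 in controls and 11.5, 21.6, 18.2 and 11.8 in Ftl1 KD (1.19 ± 0.44, 2.29-fold, interval 1.22 to 4.29, adjusted p = 0.0485), with no overlap. Rab3b was below the limit on the mean and was not tested; it measured 4.72, 8.07, 5.62 and 7.52 in controls and 11.5, 12.6, 16.4 and 10.3 in Ftl1 KD, also with no overlap. Rab3a, the most abundant of the 3, lay on the other side at 47.2, 55.7, 56.2 and 47.2 in controls and 45.1, 29.8, 49.2 and 33.8 in Ftl1 KD, where the groups overlapped (−0.40 ± 0.25, adjusted p = 0.236).

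Among the 10 vesicle proteins tested, 3 fell and Rab3c rose, beside 13.7% lower and 10.5% higher of all genes. Syp had the most reads of the 10 genes, with 97.2, 148, 101 and 82.8 normalized counts in controls and 85.3, 68.5, 63.8 and 48.5 in Ftl1 KD, and overlapped only between control 5 and Ftl1 KD 1 (−0.68 ± 0.24, 0.626-fold, interval 0.448 to 0.874, adjusted p = 0.0357). Slc17a7, which fills vesicles with glutamate, measured 16.04, 31.5, 31.8 and 28.0 in controls and 21.1, 13.5, 14.6 and 1.47 in Ftl1 KD, the last value being 1 read (−1.35 ± 0.46, 0.391-fold, interval 0.203 to 0.754, adjusted p = 0.0327). Without that library, Ftl1 KD 5, its log2 fold change was −0.66 and its adjusted p 0.185.

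Syn2 measured 21.7, 22.6, 16.9 and 34.3 in controls and 18.2, 11.7, 12.8 and 5.88 in Ftl1 KD, where control 3 and Ftl1 KD 1 overlapped (−0.97 ± 0.35, 0.512-fold, interval 0.310 to 0.845, adjusted p = 0.0451). Syn1 showed no such difference, at 21.7 to 39.9 in controls and 32.5 to 42.6 in Ftl1 KD (0.21 ± 0.27, adjusted p = 0.606). Sv2a, at 22.7 to 38.7 against 12.8 to 25.0 (−0.63 ± 0.30, adjusted p = 0.120), and Syngr1, at 28.1 to 43.6 against 14.7 to 29.1 (−0.57 ± 0.29, adjusted p = 0.141), did not pass. The synaptotagmins Syt1 (−0.37 ± 0.24) and Syt11 (−0.01 ± 0.23) did not pass either.

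Of the 9 active zone genes, 5 were tested and 3 fell, beside 13.7% of all genes and 29.4% of those over 5 kb. Of these 5, Unc13a, Bsn, Pclo and Erc2 reached the limit on the mean only in the controls, where they were high, which favours values below 0. Unc13a encodes Munc13-1, without which vesicles are not primed, and measured 29.3, 6.45, 20.6 and 29.3 in controls and 0.959, 6.31, 5.47 and 8.82 in Ftl1 KD. Control 2 lay below Ftl1 KD 5, so that the groups overlapped (−1.84 ± 0.55, 0.280-fold, interval 0.129 to 0.610, adjusted p = 0.0154). Its paralogue Unc13b was too low to be tested, at 0 to 7.94 in controls and 0 to 1.92 in Ftl1 KD.

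Bsn measured 15.1, 14.9, 24.3 and 39.7 in controls and 7.67, 7.22, 7.29 and 7.35 in Ftl1 KD, from 4 to 8 reads a library in the latter, and every Ftl1 KD library lay below every control (−1.44 ± 0.38, 0.369-fold, interval 0.217 to 0.629, adjusted p = 0.00663). Pclo measured 7.55, 11.7, 16.9 and 29.3 in controls and 1.92, 8.12, 3.64 and 4.41 in Ftl1 KD, with an overlap between control 1 and Ftl1 KD 3 (−1.61 ± 0.59, 0.327-fold, interval 0.142 to 0.751, adjusted p = 0.0442). Control 5 held the highest value of Bsn and Pclo and shared that of Unc13a with control 1. Without it, the adjusted p were 0.0649 for Bsn, 0.225 for Pclo and 0.0844 for Unc13a, and the log2 fold changes −1.16, −1.29 and −1.63.

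The other active zone genes were less clear. Erc2 ranged from 10.4 to 20.6 in controls and from 2.71 to 10.3 in Ftl1 KD, without overlap (−0.98 ± 0.46, adjusted p = 0.119), and Ppfia2 from 3.74 to 26.4 and from 9.11 to 25.0 (−0.03 ± 0.45). Ppfia3, a liprin below the limit on the mean, measured 17.9, 9.28, 13.1 and 12.1 in controls and 1.92, 1.80, 1.82 and 4.41 in Ftl1 KD, with no overlap and no test. Rims1 and Rims2 were at 4.41 or less in every library.

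Among the 5 endocytosis genes 1 fell, a share near the 13.7% of all genes. Dnm1, the GTPase that pinches vesicles off the membrane, measured 38.7, 29.0, 37.4 and 28.4 in controls and 30.7, 9.02, 12.8 and 22.0 in Ftl1 KD (−0.94 ± 0.33, 0.523-fold, interval 0.328 to 0.833, adjusted p = 0.0367), where Ftl1 KD 1 lay within the range of the controls. Synj1 had a log2 fold change of −0.85 ± 0.41 (adjusted p = 0.123), and Ap2m1, a subunit of the clathrin adaptor AP-2, one of 0.50 ± 0.24 (adjusted p = 0.121). Amph (−0.01), Sh3gl2 (0.36), Vamp1 (−0.86), Sv2b (−0.90) and Syngr3 (0.21) completed the tested members, none past the threshold. Of the 11 members not tested, 7 overlapped between the groups. Besides Rab3b and Ppfia3, Syt7 (4.84 to 12.96 in controls, 0 to 4.79 in Ftl1 KD) and the shortest member Sncb (6.61, 5.65, 7.49 and 7.52 against 3.84, 5.41, 0 and 2.94) did not overlap and were both lower.

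**Figure D3:**
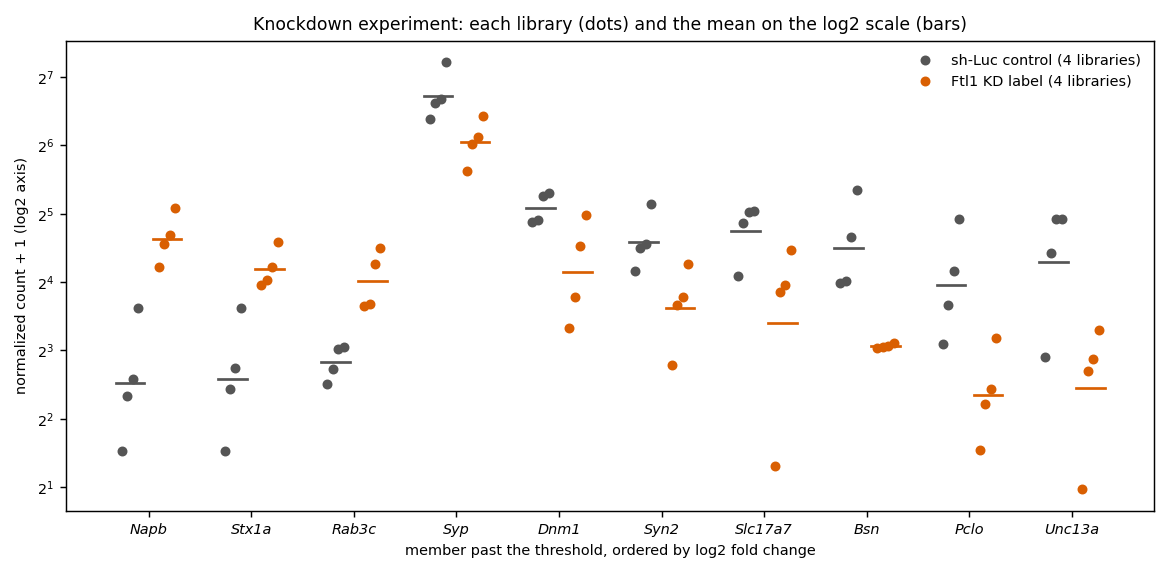
Normalized count + 1 (log2 axis) of the 10 members past the threshold in the 4 sh-Luc control (grey) and 4 Ftl1 KD (orange) libraries, with bars at the mean on the log2 scale. The groups do not overlap for Napb, Stx1a, Rab3c and Bsn, and overlap by at least 1 library for the other 6.

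Over the tested members, 3 lay higher and 3 lower without overlap between the groups (3 of 29 each), beside 11.8% and 11.9% of all genes and 23.8% in either direction. The calls were not equally stable. Napb kept its call in 8 of 8 fits that left out 1 library, Stx1a and Bsn in 7 (lost without Ftl1 KD 1, adjusted p = 0.0729, and without control 5, adjusted p = 0.0649) and Unc13a in 6 (lost without control 1 or 5, adjusted p = 0.0767 and 0.0844). Syp and Slc17a7 kept it in 4 each, with adjusted p up to 0.129 and 0.185. Syn2, Pclo and Dnm1 kept it in 2 each, with adjusted p up to 0.177, 0.225 and 0.168, and Rab3c in 1, without control 3, with adjusted p up to 0.194. The number of members called was 3 without control 5, 4 without control 2, 5 without Ftl1 KD 4 or 5, and 6 without control 1 or Ftl1 KD 3. With each library centred on its median log2 value, 6 members passed, 3 higher and 3 lower, against 3 and 7.

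Set side by side, the median log2 fold change of the vesicle side was −0.37 over 19 tested genes and that of the active zone genes −1.44 over 5, a difference of 1.07. This is a description only, because 4 of these 5 active zone genes passed through the controls alone, and with no limit on the mean the difference was 0.59. The same order stands among all genes by length. The median log2 fold change was 0.28 for 376 genes under 2 kb, 0.01 for 744 genes of 2 to 5 kb and −0.68 for 296 genes over 5 kb, of which 87 were called lower and 16 higher. Of the 9 tested members over 5 kb, 3 were lower and Rab3c, at 8.44 kb, was higher. Across the 29 members the Spearman correlation of length with the log2 fold change was −0.46, and across 1416 genes −0.38; genes share libraries, the limit on the mean acts on both, and no p is given.

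Per library, the vesicle side minus the active zone genes was −0.44, −0.01, −0.79 and −0.99 in controls 1, 2, 3 and 5 and 1.08, 0.70, 0.59 and −0.15 in Ftl1 KD 1, 3, 4 and 5, so that control 2 lay above Ftl1 KD 5. The excess of transcripts under 2 kb over those above 5 kb, taken over all genes tested, was −0.54, −0.17, −0.22 and −0.70 in the controls and 0.36, 0.47, 0.42 and 0.37 in Ftl1 KD, with no overlap. The members' contrast and that of all genes thus moved together between the groups, and a change of the active zone genes as such cannot be told apart from that of long transcripts in general. Among genes over 5 kb, 34.8% were called, beside 24.2% of all.

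**Figure D4:**
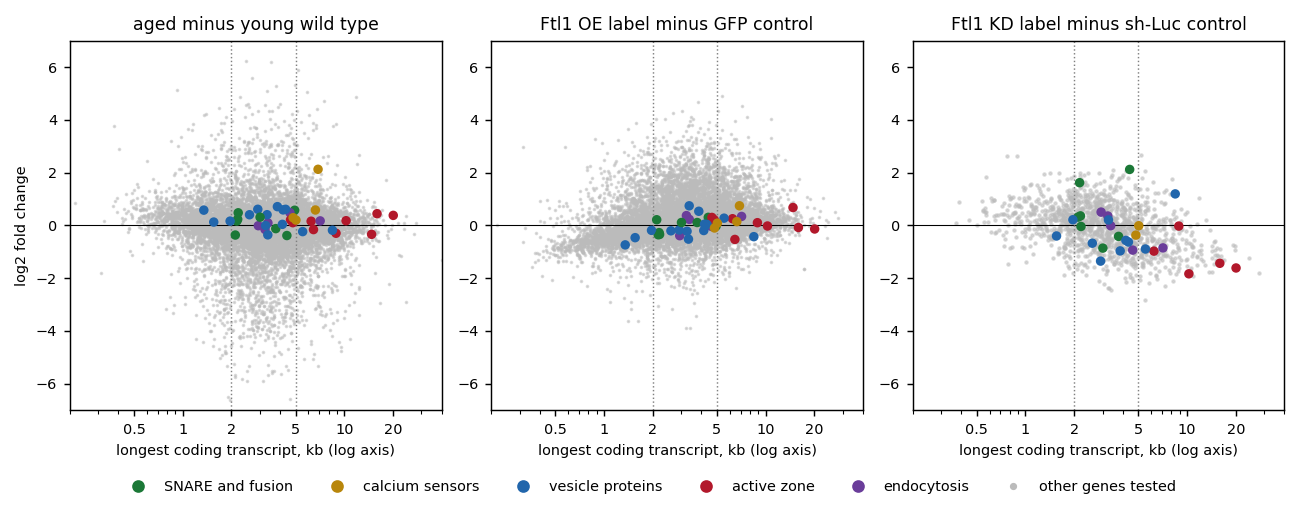
Log2 fold change against the length of the longest coding transcript (log axis, kb) for all genes tested (grey) and the members (coloured by role) in the 3 comparisons, with dotted lines at 2 and 5 kb. In the knockdown experiment the cloud slopes down to the right (Spearman −0.38 over 1416 genes) with Unc13a, Bsn and Pclo at its long end, in the overexpression experiment it slopes up (0.28 over 13075 genes), and with age it is flat (−0.07 over 12621 genes).

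**Figure D5:**
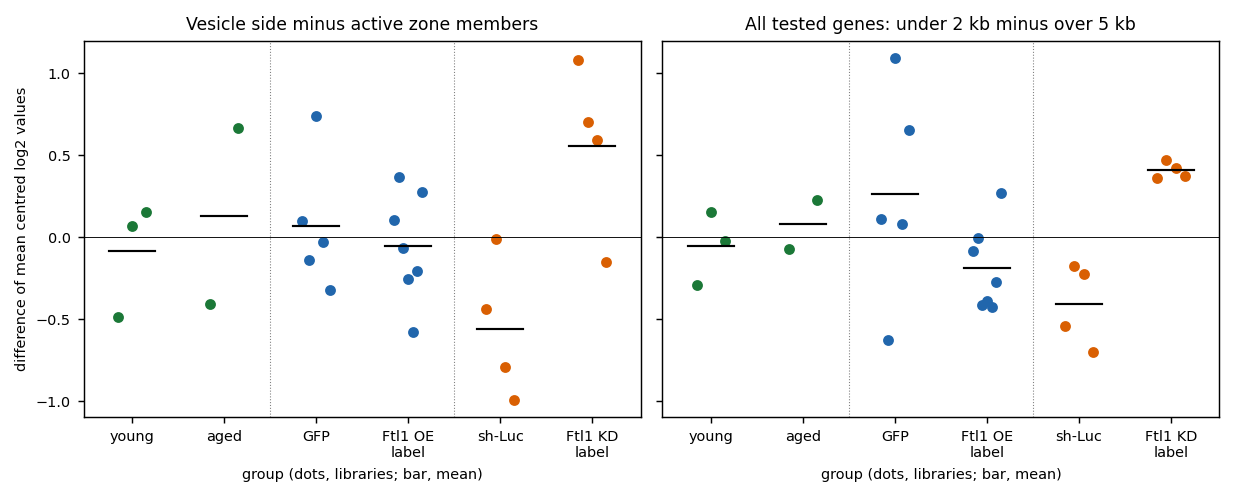
Mean centred log2 value of the vesicle side minus that of the active zone genes (left) and of all tested genes under 2 kb minus those over 5 kb (right), 1 dot a library with a bar at the group mean. In the knockdown experiment the groups overlap in the left panel (−0.99 to −0.01 and −0.15 to 1.08) and are apart in the right panel (−0.70 to −0.17 and 0.36 to 0.47).

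Other RNAs moved with the knockdown groups. The 7 nuclear-retained RNAs listed (Malat1, Meg3, Snhg11, Neat1, Miat, Rian and Mirg) summed to 619 to 1235 normalized counts in controls and 219 to 322 in Ftl1 KD, and the 4 of them tested all fell. Inhibitory neuron markers, Gad1 among them, summed to 66.5 to 102 in controls and 120 to 164 in Ftl1 KD. Markers of dentate granule cells (33.7 to 86.7 against 17.6 to 29.7) and of oligodendrocytes (36.8 to 93.6 against 10.9 to 21.6) were lower without overlap, CA3 markers, none of them tested, likewise (17.7 to 22.5 against 2.94 to 15.3). Most of the dentate granule sum was C1ql2, the only one tested, which fell from a mean of 51.0 to 17.7 (adjusted p = 0.0013). Of the others, all too low to be tested, Prox1, Dock10, Stxbp6 and Glis3 were lower and Maml2 was higher (0.10 and 2.73). Neuronal markers summed to 168 to 184 in controls and 201 to 207 in Ftl1 KD, but moved both ways. Tubb3 rose from a mean of 45.3 to 113 (adjusted p = 0.000324) and Eno2 fell from 83.2 to 41.2 (adjusted p = 0.00341), while Rbfox3, the gene of NeuN, was not tested at 10.8 and 6.45. Summed markers of CA1, astrocytes, oligodendrocyte precursors, microglia and newborn neurons overlapped, although the CA1 marker Fibcd1 fell from 31.6 to 11.7 (adjusted p = 0.00276) and the astrocyte marker Slc1a3 rose from 5.56 to 25.3 (adjusted p = 0.000541). Of the endothelial markers, Pecam1 and Flt1 were at 0 in every library. The part of any of these in the differences of the members was not tested.

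A wider list of 80 presynaptic genes outside the 40, of which 79 were in the tables, was read in the same way. With age 76 of them were tested, none was called, as for all genes, and their median log2 fold change was 0.04. An unadjusted p of 0.05 or less was reached by 2 on the higher and 2 on the lower side. The smallest adjusted p, 0.354, was that of Slc6a17, which the paper lists as increased with age. It had means of 914 in young and 2217 in aged libraries (log2 fold change 1.29 ± 0.28). In the overexpression experiment 76 were tested, none was called, and the median was 0.04. In the knockdown experiment 22 were tested with a median of −0.12, 2 rose and 3 fell (22.7% beside 24.2% of all genes). Among the higher ones was Dnajc5, the vesicle chaperone cysteine string protein (15.4 normalized counts in controls and 34.3 in Ftl1 KD on average, log2 fold change 1.25 ± 0.34, adjusted p = 0.00919). The lower ones were Syt13 (32.8 and 16.9, −1.64 ± 0.61, adjusted p = 0.0470), the amphiphysin relative Bin1 (29.4 and 12.9, −1.18 ± 0.31, adjusted p = 0.00719) and the endophilin B gene Sh3glb2 (29.5 and 10.3, −1.60 ± 0.39, adjusted p = 0.00405).

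None of the 10 genes called in the knockdown experiment passed the threshold elsewhere. In the aging experiment, which shares no library with it, their log2 fold changes ran from −0.38 for Napb to 0.71 for Syn2, and in the overexpression experiment from −0.43 for Rab3c to 0.54 for Syn2. Whether these values differ between experiments was not tested. Unc13a measured 1060 to 1605 in young and 1191 to 2043 in aged libraries (0.18 ± 0.32) and 1212 to 3528 in GFP controls and 1720 to 3000 in Ftl1 OE (−0.02 ± 0.23). Stx1a measured 519 to 913 in young and 623 to 991 in aged libraries (0.17 ± 0.34) and 1174 to 6391 in GFP controls and 1103 to 3330 in Ftl1 OE (−0.35 ± 0.38).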

How the data were processed

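RNA of NeuN-sorted hippocampal nuclei was measured in 25 libraries. The labels name a polyA-enriched, strand-specific kit, whereas the methods give a modified Smart-seq2 protocol. The deposited values are a signal in normalized counts: the authors aligned reads with STAR to mm10, counted them with RSEM and divided them by DESeq2 size factors. Whole reads were recovered for 100% of the genes of every library (tolerance 0.01). The authors' own fold changes and p-values in these tables were not used, and 0 library columns were left out. Groups followed the labels.

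Genes with a mean of at least 10 were tested with limma 3.58.1 (trend) on log2(normalized count + 1), on which scale all log2 fold changes stand and understate changes of low genes. P-values were adjusted by Benjamini-Hochberg over all genes tested. The threshold for a call was 0.05 on this adjusted p. For aging, the log2 fold change also had to reach 0.5 in either direction. EdgeR 4.0.16 and DESeq2 1.42.0 on the recovered reads, TMM scaling, median centring, pseudocounts of 0.5 and 5, other filters, a replicate block and leaving out each library were alternatives. Fits were checked on simulated data. Transcript lengths came from GENCODE M21 and promoters from RefSeq on GRCm38.p6. R 4.3.3, Python 3.11.15, numpy 2.4.6, pandas 2.3.3, scipy 1.17.1 and matplotlib 3.10.9 were used.

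Members and lists were chosen with earlier results of these data known. Values in every library are given for each member past the threshold, or, with fewer than 6 such members, for the 6 with the smallest p. The same holds for the 2 shortest and 2 longest transcripts. The 7 libraries labelled Ftl1 OE are an exception, with the lowest, median and highest value. Some paralogues are given beside these, by library or as a range. Depth limits the knockdown experiment (48902 to 358560 reads a library). Other members named outside this rule were chosen after their values were seen. Single values of some listed genes are not reported here.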

Additional observations from a re-analysis of the deposited data

Results flagged for a closer look

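In 3 of 48 groups of member values, 1 library stood farther from the others than Dixon's 95% limit for the group size allows; chance flags about 1 in 20 groups. Syn2 measured 7540 in the GFP control 9925 and 2280 to 2992 in the other 4 controls. Sh3gl2 measured 3566 in Ftl1 OE library 9932 and 4265 to 4745 in the other 6 libraries labelled Ftl1 OE. Rab3b measured 568 in Ftl1 OE library 9918 and 954 to 1161 in the other 6.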

How the results depend on the processing

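With age and with Ftl1 OE, 0 members passed the threshold under each of the 15 and 21 alternatives run. In the knockdown experiment the 10 members became 6 with median centring and 1 (Syp) of the 5 that reached a mean of 50. They became 3 to 9 when 1 library was left out, with 7 of the 10 among the 9 called without control 3. EdgeR called 9, 8 of them among the 10, DESeq2 7 and TMM scaling 9. Without a filter 8 passed, 6 of them among the 10. The vesicle side minus the active zone genes was 0.59 without a filter, 0.87 to 1.24 when 1 library was left out, and had no value at a mean of 50, where no active zone gene was left. The cause of these shifts was not tested.

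With the replicate number as a block, 4 knockdown members passed (Stx1a, Napb, Unc13a and Bsn) and 188 genes in all. Same-numbered libraries did not deviate together (correlations of −0.03, −0.02 and −0.05, and with age −0.05 and 0.02). These values cannot exclude a shared litter, day or batch. With 2 aged libraries, the deviations of the aged group mirror each other. The meaning of the numbers is not stated.

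The vesicle side minus the active zone genes changed sign with age, from −0.37 to 0.64 when 1 library was left out, −0.12 with the block and −0.03 for a split at the median transcript length, and with Ftl1 OE ran from −0.30 to 0.07, with −0.01 by edgeR. Directions also turned for members short of the threshold. With age, Rab3a ran from −0.14 (without young 1) to 0.27 when 1 library was left out, with −0.01 without aged 3, and was at −0.14 with the block, and Pclo ran from −0.10 (without aged 2) to 0.86. With Ftl1 OE, Bsn ran from −0.19 to 0.018 (without Ftl1 OE 9910) and Pclo from −0.28 to 0.049 (without control 9904). Without controls 9905 and 9926, an alternative chosen after seeing the data, Synpr was at −0.14 and Bsn at 0.063.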
